A study of Mus musculus with 31 samples.

Results

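Thymic tumors with the highest Il2ra signal were compared with those with the lowest. Il2ra encodes CD25, the alpha chain of the interleukin-2 receptor. The members are 10 of the 31 arrays of the series, 5 Il2ra-high and 5 Il2ra-low tumors. From the 19 tumor arrays, HT tumors 01 and 03 and KO tumors 04 and 06 were left out, the other 15 were ranked by Il2ra, and the 5 at each end were taken. The members were therefore chosen by a value measured on the same arrays, and no test of Il2ra itself is given.

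All 10 tumors were from C57BL/6 mice treated with N-ethyl-N-nitrosourea (ENU), an alkylating mutagen, at 100 mg/kg. By their NDR1 genotype the mice were WT (NDR1+/+), HT (NDR1+/-) or KO (NDR1-/-). Stk38 is the gene of the kinase NDR1. Tumors were taken when they developed, or at 9 months after ENU at the latest. The Il2ra-high group held WT tumor 02, HT tumors 04 and 06 and KO tumors 01 and 05. The Il2ra-low group held WT tumors 01 and 04, HT tumor 05 and KO tumors 02 and 03. Each group had 1 male, HT tumor 04 in the high and KO tumor 02 in the low group, and 4 females. Genotype and sex were thus spread almost evenly over the groups. The 12 untreated thymi of the series, 4 per genotype, were used only as a description of normal thymus. Titles speak of tumor cells while the tissue label reads thymus, and in such bulk RNA a lower signal from fewer cells of a type and one from less RNA per cell cannot be told apart. The labels do not say whether the arrays came from separate animals, so the p-values weigh differences only against the spread between these arrays.

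A developing T cell makes CD25 in the double-negative (DN) stages, before it carries CD4 or CD8, and shuts it off after beta-selection. Beta-selection is the checkpoint at which a new T cell receptor beta chain is tested by pairing with the pre-T cell receptor alpha chain, encoded by Ptcra. Activated and regulatory T cells make CD25 again, and there it raises the affinity of the receptor formed by the IL-2 receptor beta chain and the common gamma chain. IL-2 signals through the JAK kinases and STAT5, which in turn acts on the Il2ra gene. Notch signalling drives the DN stages and acts on Ptcra. CD25 is thus a marker that fits more than one state of a T cell, and the genes that varied with it were read by state.

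The promoter stretches of the ranked gene and of Ptcra, the gene of these states with the clearest difference, are shown first. They are the 250 bases before each start site in the RefSeq table of assembly GRCm38.p6, 5′ to 3′ on the gene's strand, at chr2:11642542-11642791 (+) for Il2ra and chr17:46763713-46763962 (-) for Ptcra. Capitals mark TGGGAA, the core read by the Notch partner RBPJ, and CAGCTG, an E-box read by proteins such as the product of Tcf12.
Il2ra: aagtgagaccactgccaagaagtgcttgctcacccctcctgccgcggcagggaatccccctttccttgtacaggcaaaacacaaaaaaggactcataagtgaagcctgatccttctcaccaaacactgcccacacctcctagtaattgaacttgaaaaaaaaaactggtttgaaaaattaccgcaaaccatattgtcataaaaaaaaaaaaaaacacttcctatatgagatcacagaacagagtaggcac
Ptcra: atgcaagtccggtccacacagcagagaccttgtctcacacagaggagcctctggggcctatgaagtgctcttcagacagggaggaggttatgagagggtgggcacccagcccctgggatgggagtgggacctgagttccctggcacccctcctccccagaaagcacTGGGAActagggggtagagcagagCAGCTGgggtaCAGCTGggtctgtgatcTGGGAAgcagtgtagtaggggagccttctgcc
Ptcra held 2 copies of TGGGAA and 2 of CAGCTG, and Il2ra held neither. Both strands were searched. Of 27025 promoters of the same length, 21.5% held TGGGAA and 12.8% held CAGCTG. Another E-box, CACCTG, was in 17.1% and the STAT motif TTCNNNGAA in 7.18%, and neither was in these 2 stretches. These matches describe letters and not bound sites.

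Values below are log2(intensity + 1) of normalized array intensities. On this scale the middle probe set of an array sits at 4.39, so values near 4 are dim and folds against them are compressed. The Il2ra-high tumors had 12.19 in HT tumor 06, 12.10 in HT tumor 04, 11.60 in WT tumor 02, 11.46 in KO tumor 05 and 9.09 in KO tumor 01. The Il2ra-low tumors had 5.82 in KO tumor 03, 5.75 in HT tumor 05, 4.73 in WT tumor 04, 4.40 in KO tumor 02 and 4.13 in WT tumor 01. KO tumor 01 was thus well below the other 4 high tumors. The 5 tumors between the groups ran from 8.42 in HT tumor 07, just under the high group, to 6.71 in KO tumor 07, just above the low group. The 12 thymi ranged from 7.07 to 8.18. On this probe set, the one used for ranking, Il2ra-high tumors were all above untreated thymus and Il2ra-low tumors all below it, which is how far the ranking spread them apart. The other Il2ra probe set read 10.17, 8.87, 8.36, 10.34 and 5.49 in the high tumors, in the order just given, and 4.86, 3.38, 3.94, 3.47 and 3.35 in the low tumors. On it, KO tumor 01 lay within the range of the thymi, 4.87 to 6.47, and below WT tumor 03, an intermediate tumor with 5.97. The low KO tumor 03 lay above the intermediate WT tumor 05 (4.20) and KO tumor 07 (3.81) there. The low WT tumor 04 also lay above KO tumor 07.

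**Figure D1:**
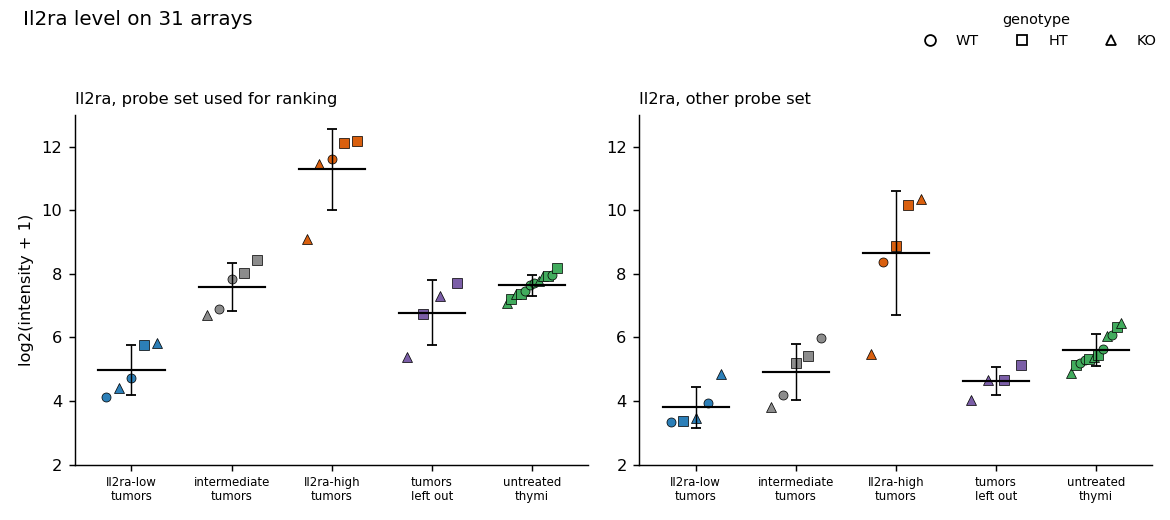
Il2ra on all 31 arrays, as log2(intensity + 1), for the probe set used for ranking (left) and the other probe set (right). Points are arrays, symbols give the genotype, and the line and bars give the mean and SD of a group. KO tumor 01 is the lowest of the high group on both probe sets, at 9.09 and 5.49.

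The groups also differed in a sign of RNA quality. The 3′ over 5′ signal of the actin and Gapdh control probe sets, a log2 ratio that is larger where RNA is degraded, was 0.19, 0.71, 1.52, 0.18 and 0.73 in the high tumors and 1.91, 2.06, 2.01, 0.75 and 0.97 in the low tumors, both in the order above. The means were 0.667 ± 0.546 and 1.54 ± 0.627 (SD, n = 5 each), a difference of -0.87 with a 2-sided exact permutation p of 0.0397 (0.00794 is the smallest possible). Leaving out any 1 of 7 tumors moved this p above 0.05. The 12 thymi had 0.336 ± 0.0678. The highest ratios were those of the intermediate HT tumor 07, 4.87, and KO tumor 07, 3.17. Stk38 had 10.62 ± 1.30 in the high and 11.56 ± 1.67 in the low tumors (limma adjusted p = 0.552), and the groups overlapped.

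Across all other genes, Il2ra-high tumors had more RNA of Ptcra, of the inhibitor of E proteins Id1, of the lectin-like gene Clec2i and of the receptor Nrp1. They had less of the collagen chaperone gene Serpinh1, the kinesin gene Kif13a and Ubash3b, which damps receptor signals, and less of Bcas1 and Tsc22d1. In limma, 39 of 14015 genes passed an adjusted p of 0.05, which is 0.278% of them. Of these, 14 (0.0999%) were higher and 25 (0.178%) lower in the high tumors. At an unadjusted p of 0.05 there were 945 higher (6.74%) and 1220 lower (8.7%). In 396 genes (2.83%) the groups did not overlap at all, 164 (1.17%) higher and 232 (1.66%) lower. The median difference over all genes was -0.06. A p-value here tells only how strongly a gene differed between the high and the low tumors, against the spread within the groups.

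The calls depended on the setting. The groups did not overlap for any of the 39 genes, so their direction, kept in all of 29 other settings in which they were tested, is no sign of stability. The count was 22 without KO tumor 01, 25 without HT tumor 06 and 74 without WT tumor 02. It was 17 with genotype and 11 with the 3′ to 5′ ratio as a covariate. It fell to 2 with 6 tumors a group and to 0 (1322 at unadjusted p of 0.05) among female tumors alone. In both of those, HT tumor 07 joined the high and KO tumor 07 the low group. With the Il2ra level as a continuous term over 15 tumors 4 genes passed, Kif13a, Serpinh1, Ubash3b and Rab6b.

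Among the genes of beta-selection, Ptcra stood out. It read 12.55 in HT tumor 06, 12.18 in HT tumor 04, 11.55 in WT tumor 02, 12.02 in KO tumor 05 and 11.92 in KO tumor 01. In the low group it read 9.19 in KO tumor 03, 9.22 in HT tumor 05, 8.74 in WT tumor 04, 9.22 in KO tumor 02 and 8.61 in WT tumor 01. The groups lay far apart with little spread, and KO tumor 01, lowest in Il2ra of the high group, was not low in Ptcra. The means of 12.05 ± 0.366 and 9.00 ± 0.296 differed by 3.05 (SE 0.22, limma adjusted p = 0.000322), an 8.27-fold difference. The 12 thymi had 9.34 ± 0.156, which all Il2ra-high tumors exceeded. So did the intermediate WT tumor 03 (12.42), HT tumor 02 (11.94), WT tumor 05 (11.29) and KO tumor 07 (10.11), but not HT tumor 07 (8.54). An excess over thymus was thus not limited to the Il2ra-high tumors. Ptcra passed in 23 of 29 other settings, and had a single probe set.

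The recombinase genes Rag1 and Rag2, which cut the T cell receptor loci, did not pass, although their groups did not overlap. Rag1 read 13.57 to 14.37 in the high and 10.64 to 12.97 in the low tumors, a difference of 2.16 (limma adjusted p = 0.068). Rag2 read 9.85 to 11.09 against 4.85 to 8.78, a difference of 3.27 (limma adjusted p = 0.0889). Both were highest in thymus, with means of 14.73 and 12.06. Tcf12, which encodes the E protein HEB, differed by 0.75 without overlap (limma adjusted p = 0.166). Its other probe sets ran from -0.11, on a bright one, to 1.75. Over the 17 DN3 and beta-selection genes tested, 1 rose, 0 fell, 11 differences were positive and the median was 0.24. Over all genes tested, 6299 of 14015 differences were positive. Among the 6 negative members of the list were Cd5 at -1.62 (limma adjusted p = 0.312) and Cd28 at -0.32.

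Id1 encodes an inhibitor of E proteins, the factors that act on Ptcra and the Rag genes. It read 7.44, 6.84, 9.87, 10.11 and 9.22 in the high tumors, in the order HT 06, HT 04, WT 02, KO 05 and KO 01. It stayed between 4.14 and 4.90 in the low tumors, between 4.01 and 5.81 in the intermediate tumors and between 4.35 and 4.83 in thymi. Its signal was thus near the array's middle in the low tumors and thymi. It was above that middle, but under the Il2ra-high tumors, in the intermediate HT tumor 02 (5.65) and WT tumor 03 (5.81). The difference was 4.26 (SE 0.61, limma adjusted p = 0.0186), and it lost the threshold in 13 of 29 other settings. Id2, a related inhibitor, differed by 1.12 (limma adjusted p = 0.249).

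Clec2i, a C-type lectin-like gene, had the largest rise. It read 9.04 to 10.88 in the high and 4.77 to 7.05 in the low tumors, with thymi at 9.85 to 10.48. The Il2ra-high tumors were therefore at the level of thymus and the low tumors under it. The difference was 4.48 (SE 0.46, limma adjusted p = 0.00291), and its other probe set differed by 3.59.

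Nrp1 encodes neuropilin-1, a semaphorin and growth factor co-receptor also carried by regulatory T cells. It read 11.68 to 12.39 in the high and 9.86 to 10.86 in the low tumors, and 9.94 to 10.56 in thymi. It rose by 1.56 (SE 0.22, limma adjusted p = 0.017), with all 3 other probe sets above the filter of the same sign. It lost the threshold in 12 of 29 other settings.

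**Figure D2:**
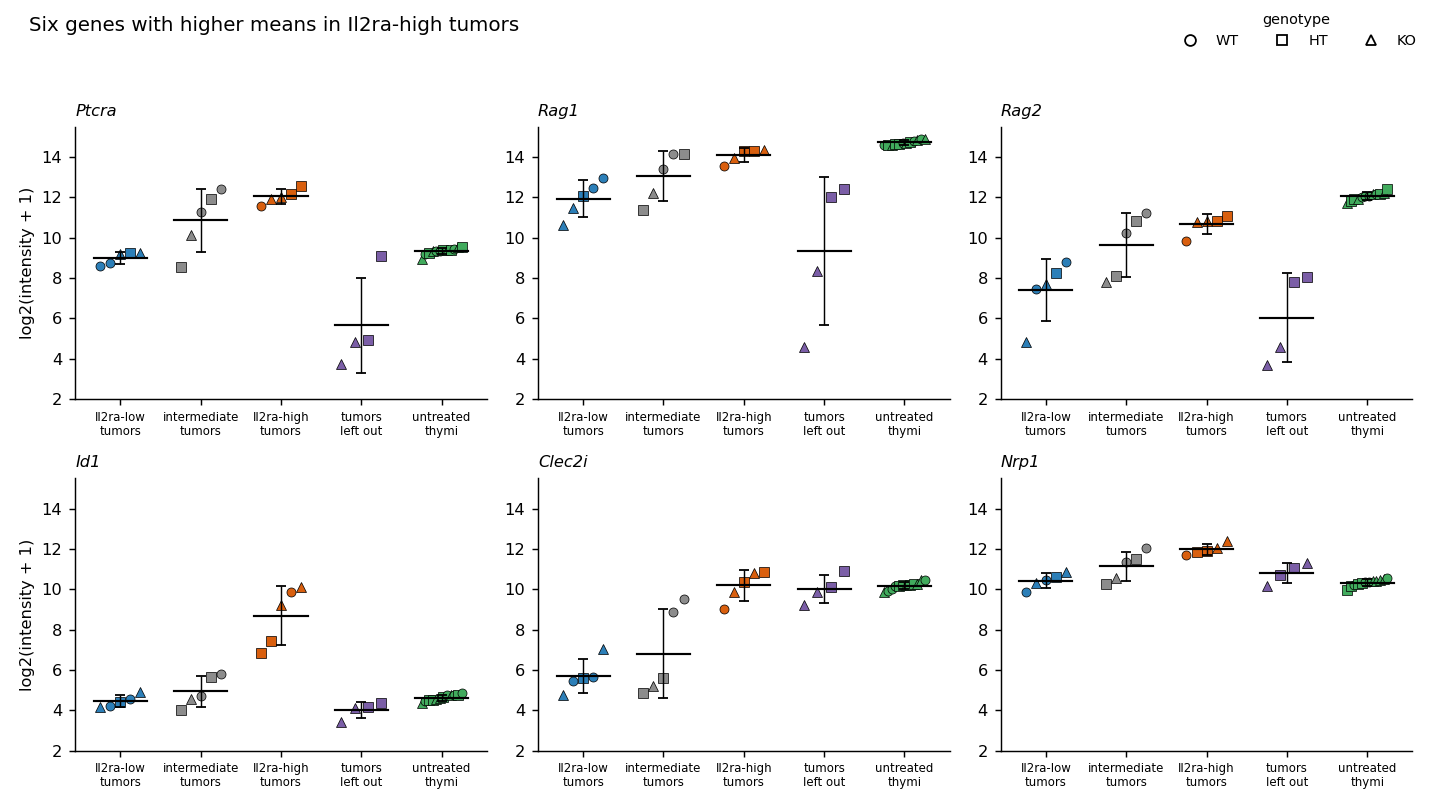
Genes with higher means in Il2ra-high tumors, as log2(intensity + 1). Points are arrays, symbols give the genotype, and lines and bars give the mean and SD. Ptcra, Id1, Clec2i and Nrp1 passed the threshold and Rag1 and Rag2 did not. Id1 lies at 6.84 or more in all high tumors and at 5.81 or less elsewhere.

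Like Id1 and Clec2i, the remaining 10 rises fell into no list. Ube2q2, a ubiquitin-conjugating enzyme gene, rose by 4.15 from 3.74 to 6.56 in the low to 8.37 to 9.47 in the high tumors. Sytl2, a gene of vesicle docking, rose by 3.71, and Tbc1d19 by 3.34. Arhgef10l rose by 3.43. Thymi were at the high tumors' side for Ube2q2 (mean 8.99), Sytl2 (7.78) and Tbc1d19 (8.29), but not for Arhgef10l (3.68). Tsga10 rose by 2.03 (limma adjusted p = 0.00243) and the chromatin remodeller gene Chd9 by 2.01. Gm20740 rose by 2.80, Fgfbp3 by 1.85 and Tmem14a by 1.31. Fam120c rose by 2.46, but its other probe set above the filter, a dim one, went the other way.

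Serpinh1, which encodes the collagen chaperone HSP47, had the largest fall. It read 4.06, 4.002, 5.23, 6.52 and 3.86 in the high tumors, in the order HT 06, HT 04, WT 02, KO 05 and KO 01. It read 10.13 to 11.60 in the low tumors and 3.75 to 5.10 in thymi. The low tumors were thus far above both thymus and the Il2ra-high tumors. The intermediate tumors ran from 6.22 in WT tumor 03 to 11.16 in KO tumor 07. Of these, KO tumor 07 and HT tumor 07 (10.33) lay within the range of the low tumors. The difference was -6.28 (SE 0.53, limma adjusted p = 0.000583), and the other probe set differed by -5.10. The fibroblast and collagen list was read beside it. None of its 17 genes passed, 15 differences were negative, and its median was -0.58. Its mean level was 5.83 to 7.03 in the high and 6.26 to 8.08 in the low tumors. Col1a2, a chain of type I collagen, read 4.60 to 8.50 against 5.69 to 12.25 (limma adjusted p = 0.26). The part of such cells in the fall of Serpinh1 was not tested.

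Bcas1 had the smallest p of all genes. It read 4.01 to 4.74 in the high, 9.02 to 11.06 in the low tumors and 4.37 to 5.36 in thymi. It fell by 5.88 (SE 0.33, limma adjusted p = 8.12e-05). Kif13a, a kinesin motor gene, read 3.24 to 5.69 against 8.75 to 9.31 and fell by 4.85 (SE 0.40, limma adjusted p = 0.000583). Its 4 other probe sets above the filter had the same sign. Thymi, at 4.69 to 5.51, were closer to the high tumors for both genes. Intermediate tumors ran from 4.25 in WT tumor 03 to 11.165 in HT tumor 07 for Bcas1. For Kif13a they ran from 6.47 in WT tumor 03 to 9.22 in KO tumor 07. Neither signal was thus limited to the Il2ra-low tumors.

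Ubash3b encodes STS-1, a phosphatase that damps T cell receptor signalling. It read 3.81, 3.90, 3.97, 4.58 and 3.88 in the high tumors, in the same order, and 6.52 to 7.62 in the low tumors. The high tumors were also under the thymi, at 4.87 to 5.84, and the low tumors above them. The 4 tumors left out read 8.17 to 10.895, above all of the low tumors. Ubash3b fell by 3.17 (SE 0.25, limma adjusted p = 0.000502), and both other probe sets went the same way. It passed in 27 of 29 other settings, which was more than for any other of the 39 genes.

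Tsc22d1, a gene responsive to transforming growth factor beta, behaved otherwise against thymus. It read 4.19, 5.51, 6.16, 9.14 and 4.35 in the high tumors, 9.99 to 12.54 in the low tumors and 11.09 to 11.68 in thymi. The Il2ra-low tumors were near thymus and the high tumors under it. It fell by 5.83 (SE 0.91, limma adjusted p = 0.0354), all 6 other probe sets went the same way, and it lost the threshold in 16 of 29 settings.

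**Figure D3:**
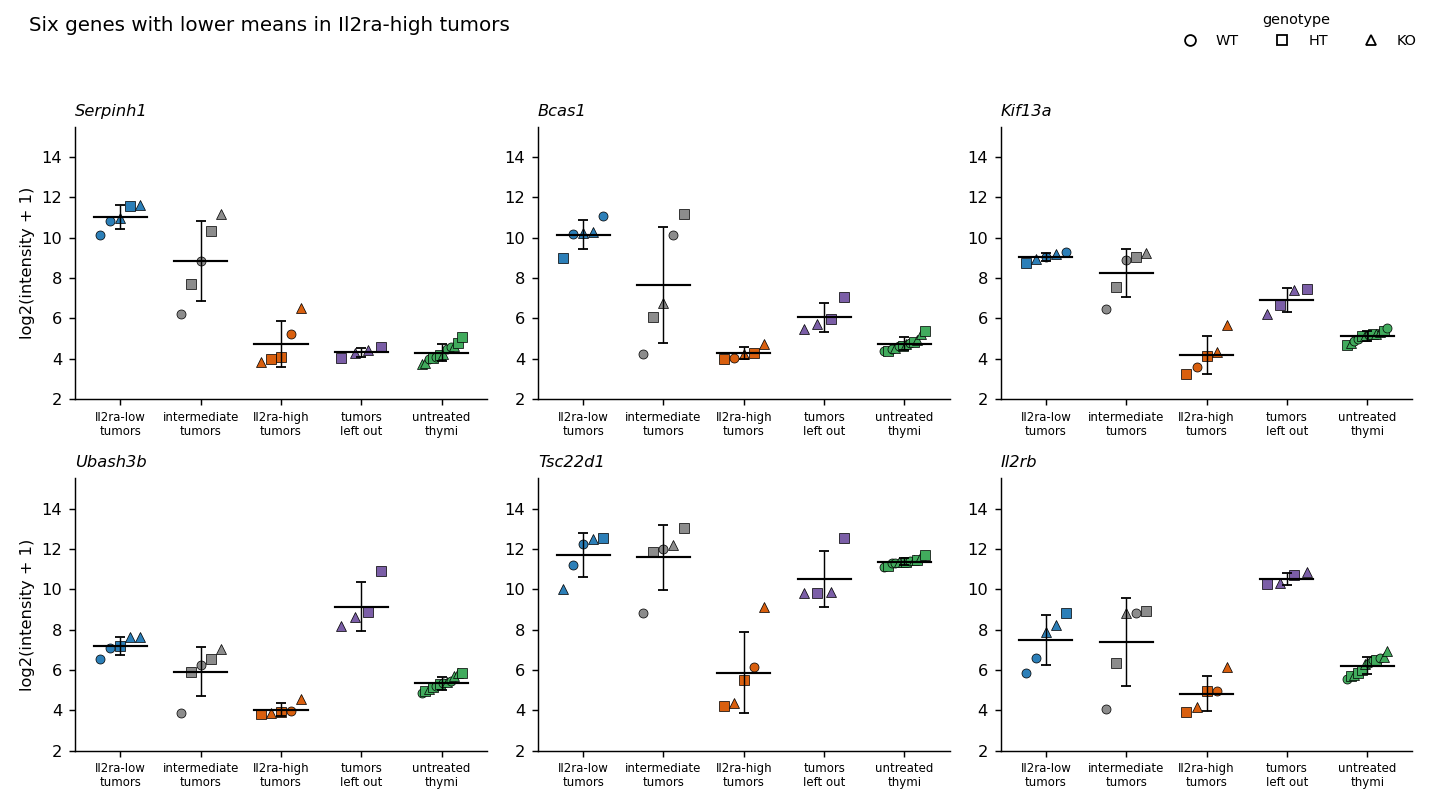
Genes with lower means in Il2ra-high tumors, as log2(intensity + 1). Points are arrays, symbols give the genotype, and lines and bars give the mean and SD. The first 5 genes passed the threshold and Il2rb did not. KO tumor 05 is the highest of the high group for all 6 genes.

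Among the other falls, several genes are usually tied to other tissues. Rbfox3, a neuronal splicing factor gene, fell by 5.94 (limma adjusted p = 0.00719). Hc, which encodes complement C5, fell by 5.13, and F2, which encodes prothrombin, by 3.78. Antxr1, a collagen-binding receptor gene, fell by 5.06, and Adamts3, which encodes a procollagen-processing protease, by 3.78. For each of these 5 genes the thymus mean was between 3.24 and 4.17, which is dim. The Il2ra-low means were 9.995 for Rbfox3, 9.68 for Hc, 8.71 for F2, 10.21 for Antxr1 and 7.50 for Adamts3. The intermediate tumors spread widely, with means of 7.79 for Rbfox3, 7.58 for Hc, 6.98 for F2, 8.71 for Antxr1 and 5.93 for Adamts3. HT tumor 07 read 10.48, 11.42, 8.50, 10.63 and 7.68 for these genes, in that order, which is the level of the low tumors or, for Hc, above it. WT tumor 03 read 3.46, 3.75, 3.68, 5.49 and 3.64, which is the level of the high tumors. The signal was thus dim in thymus but not limited to the Il2ra-low tumors.

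Hspa12a fell by 4.28, Fibcd1 by 4.21, Phldb1 by 3.69, Sorl1 by 3.63, Cadm4 by 3.29, B4galnt4 by 3.29 and Plxnb2 by 3.28. Smaller falls were those of Stard10, Slc6a8, Lzts1, Rere, Rhob, Cybrd1 and Lmln, with differences between -2.69 and -1.91. Slc44a1 fell by 1.30, but its other probe set above the filter, a dim one, went the other way. One of the 3 others of Hspa12a did so too. Of the 25 falls, 6 had an Il2ra-high mean under the array median, and of the 14 rises, 4 had such an Il2ra-low mean.

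No partner of CD25 passed the test. None of 18 tested genes of the IL-2 receptor family passed, 12 differences were negative, and the median was -0.07. Il2rb, the beta chain of the receptor, read 3.92, 4.95, 4.95, 6.13 and 4.18 in the high tumors, in the order HT 06, HT 04, WT 02, KO 05 and KO 01. It read 7.89, 8.85, 5.87, 8.23 and 6.61 in the low tumors KO 03, HT 05, WT 04, KO 02 and WT 01. Its difference of -2.66 thus ran against that of Il2ra, with WT tumor 04 under KO tumor 05 as the overlap, and did not pass (limma adjusted p = 0.117). Il2 itself was dim, at 3.39 to 3.59 against 3.26 to 3.77. Il2rg, the common gamma chain gene, had no probe set of its own here.

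Il7r, the receptor of the cytokine that keeps early thymocytes alive, read 6.17 to 10.90 in the high and 6.76 to 10.50 in the low tumors. That spread within each group was larger than the difference of 0.24. Il4ra differed by -1.63 (limma adjusted p = 0.281) and Il15ra by 0.69 (0.594). Jak1 differed by 0.67, Jak3 by -0.11, Stat3 by -0.08, Stat5b by 0.43 and Stat6 by -0.68, none passing. Another probe set of Stat5b differed by 1.51, and those of Stat3 ran from -1.43 to 0.10, so these sizes depended on the probe set. Stat5a differed by -0.17, but another of its probe sets by 1.83, so its direction is uncertain. Crlf2 (-0.18), Il21r (-0.57) and Il9r (0.66) did not pass either, and Il4, Il7, Il15 and Il21 were dim in both groups.

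Of 14 STAT5 target genes, besides Il2ra, 0 passed, 7 differences were positive, and the median was -0.05. Lta, which encodes lymphotoxin alpha, read 3.79 to 4.43 against 5.74 to 9.72 (limma adjusted p = 0.129). Pim2 differed by -1.27, the cyclin gene Ccnd3 by 0.99 (another of its probe sets by -0.40) and the survival gene Bcl2l1 by 1.22. They thus lay on both sides.

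In the Notch pathway 1 of 25 genes passed, Ptcra, and the median was 0.13. The Notch targets Heyl and Hes1 differed by 2.88 (limma adjusted p = 0.202) and 2.01 (0.278), with overlap. Heyl read 7.66 to 9.87 in the high tumors and split in the low group, at 8.09 in KO tumor 02 and 7.63 in HT tumor 05 but 4.19 to 4.66 in the others. Both genes were dim or low in thymi, with means of 3.46 and 5.07. Mfng, a glycosyltransferase gene that modifies Notch receptors, differed by -0.74 (limma adjusted p = 0.263).

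Of 14 genes of double-positive thymocytes, the stage with both CD4 and CD8, 0 passed and the median was 0.11. Cd4 read 9.50 to 10.35 in the high and 6.47 to 9.20 in the low tumors (limma adjusted p = 0.204). Cd8a ran the other way, at 9.98 to 12.15 against 11.96 to 12.81 (limma adjusted p = 0.232). Both were under thymus, where the means were 12.16 and 13.89. Of 18 genes of the T cell receptor complex, Ptcra passed, 7 differences were negative and the median was 0.21. Cd3d (0.96) and Cd3g (0.97), which encode chains of CD3, did not pass. Cd3e, another CD3 chain gene, differed by -0.11, Cd5 by -1.62 and Cd6 by -0.81.

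Of 21 T lineage transcription factors and of 12 TAL, LMO and homeobox oncogenes, 0 passed, with medians of -0.09 and -0.04. Ikzf3 differed by -2.20, Runx3 by -0.65 and Mef2c by -2.20, whereas Pbx3 differed by 2.60, Lyl1 by 1.21 and Lmo4 by 0.95, all short of the threshold. Of 14 early T progenitor genes 0 passed as well, with a median of -0.39.

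Of the lists of T cell activation, Nrp1 was the one member that passed. Over all genes tested, 7716 of 14015 differences were negative. In the list of genes induced by the T cell receptor 16 of 19 were, 0 passed and the median was -0.18. Nr4a1, an early response gene, read 4.24 to 6.89 in the high and 7.09 to 9.78 in the low tumors (limma adjusted p = 0.136). Egr2 read 3.84 to 5.75 against 5.79 to 8.23 (0.205) and Junb 5.89 to 6.65 against 6.68 to 8.36 (0.265). Jun ran the other way, at 5.82 to 9.90 against 4.44 to 5.69 (limma adjusted p = 0.164). None of these 4 genes overlapped between the groups, 1 higher and 3 lower, and no other of the 19 did so. Without overlap, 1.17% of all genes tested were higher and 1.66% lower.

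Of 16 NF-kappaB genes 14 differences were negative, 0 passed and the median was -0.74. Bcl3 read 4.39 to 6.03 against 6.35 to 8.56 (limma adjusted p = 0.157), and Traf1 differed by -2.12. Of 19 genes of regulatory and activated T cells, Nrp1 rose, 14 differences were negative and the median was -0.33. Cd83 differed by -1.93 (limma adjusted p = 0.28). Of 14 mature T cell and egress genes 0 passed and the median was -0.74, with Gimap3 at -2.63, Il6ra at -2.90, Gimap4 at -1.94 and Foxo1 at -1.22. In that list 4 of 14 differences were positive, among them Cd53 at 1.71 and Gimap6 at 0.30.

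Growth and damage genes gave no call. No member passed among 20 DNA replication, 19 mitosis, 20 MYC target, 13 p53 target, 13 BCL2 family, 17 glycolysis, 15 amino acid stress and 17 interferon response genes. Their medians ran from -0.45 for interferon response to 0.12 for amino acid stress. Ccne1, the cyclin E1 gene, read 7.86 to 8.62 against 8.89 to 10.83 without overlap (limma adjusted p = 0.0995). Mki67, a marker of dividing cells, read 12.42 to 13.83 against 13.63 to 14.23. Cdt1 differed by -0.67, Pfkm by -0.75, Perp by -1.13 and Zmat3 by 2.02, none passing. Of 14 NDR and Hippo pathway genes 0 passed and the median was 0.13, with Mob2 at 1.96 and Fry at -2.16.

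No marker of another cell type passed the threshold. Of 13 B cell and plasma cell markers 0 passed, but all 13 differences were negative, and the median was -1.64. Their mean level was 5.50 to 7.73 in the high and 5.99 to 10.18 in the low tumors, so the groups overlapped. In thymi it was 6.53 to 7.95, and in the 4 tumors left out 11.62 to 12.69. Cd22 read 9.12 in WT tumor 01, 6.79 in KO tumor 02, 6.34 in WT tumor 04, 7.26 in HT tumor 05 and 12.12 in KO tumor 03, against 4.77 to 7.04 in the high tumors. On Cd22, KO tumor 03 was thus the one low tumor within the range of the left out tumors, 11.79 to 14.04. On Ighm it read 13.53, under HT tumor 05 (14.37), WT tumor 01 (14.25) and KO tumor 02 (13.72), with the left out tumors at 14.78 to 14.97. The count of genes passing was 31 without KO tumor 03. Ighm differed by -1.80 and Cd79a by -2.18.

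Of 14 dendritic cell markers 11 differences were negative, 0 passed and the median was -0.74, with mean levels of 5.54 to 6.36 against 6.30 to 7.12. Fscn1 differed by -2.57, and the class II genes H2-Aa, H2-Ab1 and H2-Eb1 by -1.61, -1.66 and -1.51. The other way went 3 members, 1 of them higher in the high tumors without overlap, while 2 members were lower without overlap. Over all genes tested, 1.17% were higher and 1.66% lower without overlap. H2-Aa had a limma adjusted p of 0.0995. Of 15 macrophage markers the median was -0.27, with Csf1r at -1.75 and Mrc1 at 0.64. Of 15 cytotoxic and NK genes it was -0.32, with Eomes at -2.49 and Il18r1 at -2.12 but Cd160 at 1.07 and Prf1, which encodes perforin, at 0.95. Mean levels overlapped between the groups for macrophage (6.60 to 7.99 against 6.69 to 8.61) and for cytotoxic genes (4.80 to 5.79 against 5.12 to 5.79). None of these markers passed, and their part in the 39 calls was not tested.

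Of 14 thymic epithelium markers the median was -0.18, with Ccl25 at -1.78 and Cdh1 at 0.91. Of 7 endothelial markers it was 0.10, and 3 differences were negative. Pecam1 differed by 1.65 and read 8.65 to 9.52 in thymi. Plvap went the other way, at 3.99 to 4.72 in the high and 4.07 to 6.24 in the low tumors. Of 10 neutrophil, 5 mast cell and 7 erythroid and platelet markers the medians were -0.24, -0.20 and 0.27, and of 8 gamma-delta and innate-like T cell genes -1.11. Again 0 genes of these lists passed. List medians moved with the setting. Over 27 other settings 19 of the 33 lists changed the sign of their median, and 14 kept it. The median of the gamma-delta list ran from -1.33 to -0.19, of the BCL2 family from -0.54 to 0.11 and of double-positive genes from -0.058 to 0.98. That of the DN3 list ran from 0.091 to 0.79 and that of the B cell list from -2.05 to -0.82.

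**Figure D4:**
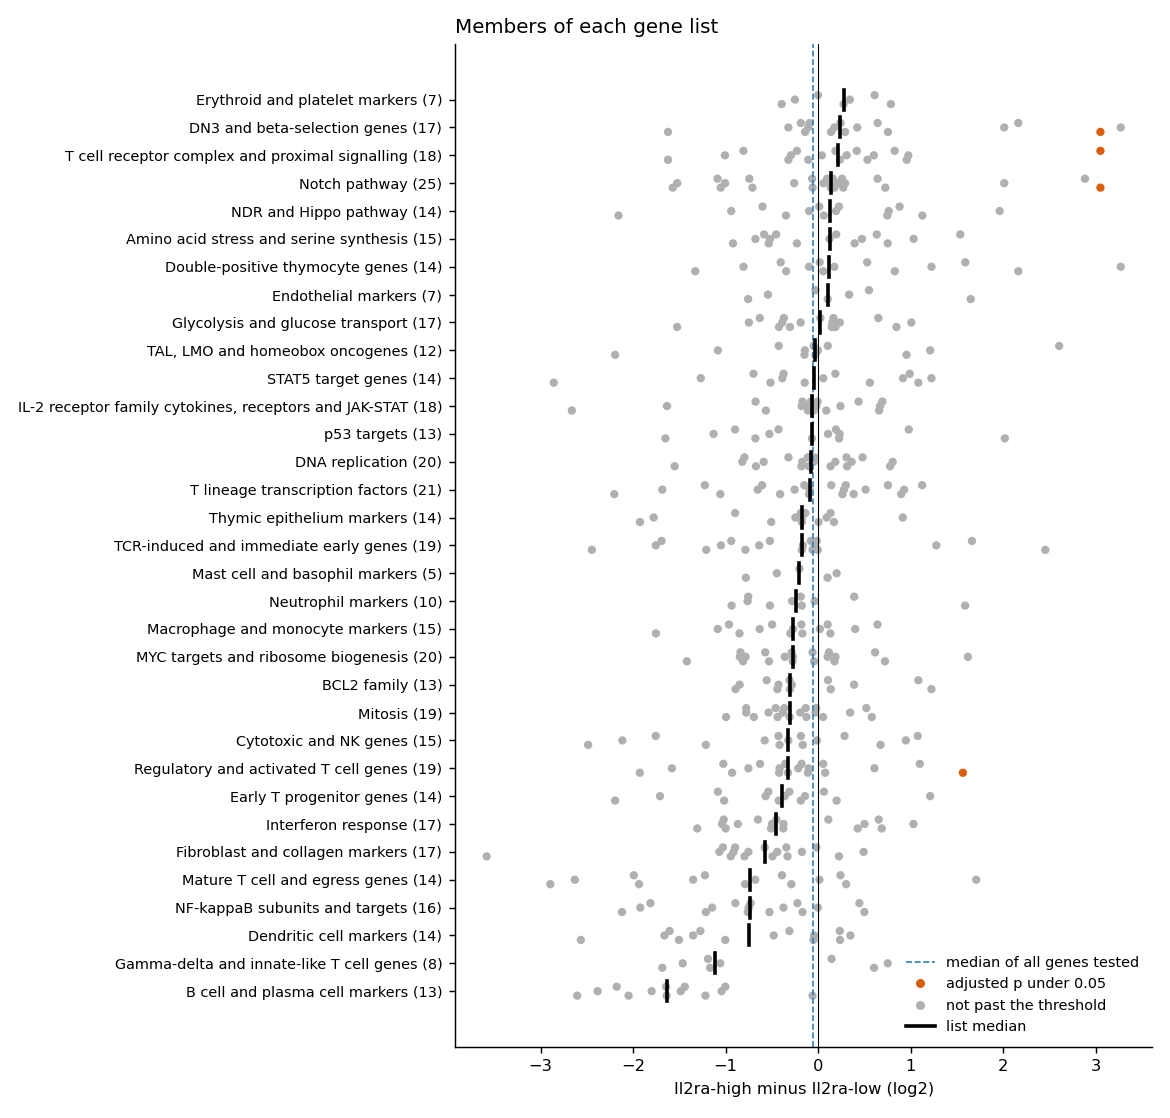
The difference between Il2ra-high and Il2ra-low tumors (log2) for each tested member of each gene list, with the number of members in brackets. Black bars are list medians and the dashed line is the median of all genes tested, -0.06. Only Ptcra, which is in 3 lists, and Nrp1 passed the threshold, and the B cell list has the lowest median, -1.64.

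The 21 arrays outside the comparison were read on the 39 genes as a description. For each gene the midpoint between the means of the high and the low tumors was taken, and an array was placed on one side of it. WT tumor 03 lay on the high side for 35 of 39 genes, HT tumor 02 for 18, WT tumor 05 for 15, KO tumor 07 for 9 and HT tumor 07 for 3. HT tumor 07 had the highest Il2ra of these 5 (8.42) and the fewest genes on the high side, and also the highest 3′ to 5′ ratio. The mean of the 5 intermediate tumors lay between the group means for 39 of 39 genes, against 49.7% of all genes, whose group means lie closer together. Ptcra read 8.54 in HT tumor 07, 11.94 in HT tumor 02, 12.42 in WT tumor 03, 11.29 in WT tumor 05 and 10.11 in KO tumor 07, which is not the order of their Il2ra.

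The 12 thymi lay on the high side for 29 to 32 of the 39 genes. This came mostly from the falls, of which 22 of 25 had a thymus mean on the high side, against 9 of 14 rises. The 4 tumors left out lay on the high side for 23 to 26 genes. Thymi and these tumors had Il2ra of 5.37 to 8.18, so a place on the high side did not need a high Il2ra.

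**Figure D5:**
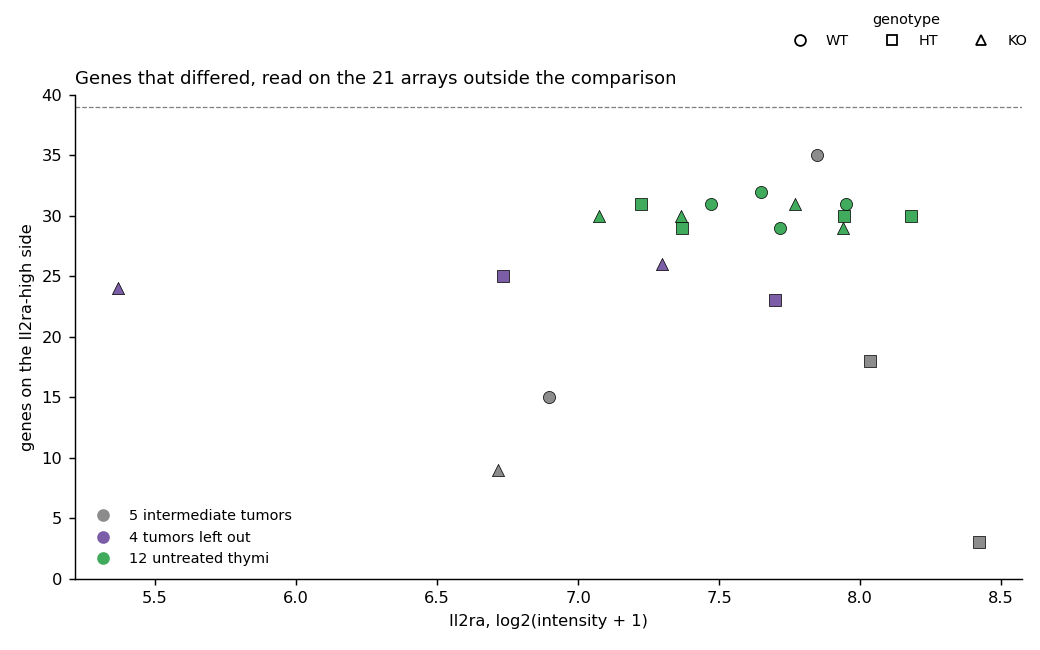
Il2ra, as log2(intensity + 1), against the number of the 39 genes on the side of the Il2ra-high tumors, for the 21 arrays outside the comparison. The dashed line marks 39. Thymi sit at 29 to 32 and the intermediate tumors between 3 and 35.

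The genes whose pattern was most like that of Il2ra over the 15 ranked tumors were taken by Pearson's r, which shares the arrays that formed the groups and is a description. They were Rab6b (r = 0.87), A930003A15Rik (0.83), Capn5 (0.79), Ddx60, Gm16794, Id1, Cyp2c38, Ptcra (0.78), H2aw and Homez. Rab6b, a gene of vesicle transport, read 7.40, 7.88, 6.74 and 7.83 in the high tumors HT 06, HT 04, WT 02 and KO 05. It read 3.41 in KO tumor 01, which is the level of the low tumors at 2.83 to 3.64. On this probe set Rab6b was thus low in KO tumor 01, where Ptcra was not. Of its 3 other probe sets, 2 had the same sign and 1 differed by -0.89, so its direction is uncertain. The other probe set of Ddx60 also went the other way. Cyp2c38 was dim in all 15 tumors, at 3.17 to 3.97, with a difference of 0.45 (limma adjusted p = 0.236). The genes most opposed were Kif13a (-0.89), Ubash3b (-0.86), Serpinh1 (-0.85), Adamts3 (-0.84) and Fibcd1 (-0.83).

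The neighbours of Il2ra on chromosome 2 gave no call. None of the 10 nearest tested genes passed. Il15ra, next to it and the gene of a related receptor chain, differed by 0.69, Rbm17 by 0.39, Fbh1 by -0.21, Ankrd16 by -0.61, Pfkfb3 by 0.16 and Prkcq by 0.04. Gm13261 differed by -1.70, Mindy3 by 0.41, Sfmbt2 by -0.47 and Pter by 0.08. Of the 39 genes that passed, 6 were on chromosome 2 (15.4%), as were 7.77% of all genes tested.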

How the data were processed

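RNA was measured on 31 Affymetrix mouse genome arrays of the 3′ type. The deposited values are normalized intensities on a linear scale, made by the authors with GCRMA per the submitters' processing notes; the version and a genome build are not given in the sources used here. All arrays share a median of 20.0. The labelling protocol names a whole-transcript assay, whereas this array reads 3′ ends.

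Values were turned to log2(value + 1). Of 45100 probe sets with values, 34957 had 1 gene in the platform annotation, 932 several and 9211 none. A gene was its probe set of highest mean, kept above the 25th percentile of probe sets (3.61). The percentile was first taken over genes, which gave 41 calls of 13643 genes, and was then changed with that count known.

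The groups were compared with limma 3.58.1 in R 4.3.3 (lmFit, eBayes, Benjamini-Hochberg over 14015 genes) with no covariate, and Il2ra was left out. The 3′ to 5′ ratio was compared by an exact permutation test. The fit was tested on simulated data. Precision is limited by how many arrays there were.

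Named genes are the IL-2 receptor family, the 15 largest rises and falls that passed, up to 4 members of a list by p, the genes most like Il2ra and its neighbours; the other falls, 10 in number, and list members that went against those named, were named after their values were seen. The members and the lists were chosen with earlier results of these data known. Alternatives changed the pseudocount, filter, probe choice, covariates, group size, ranking and arrays. Sequences and gene order came from RefSeq tables.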

Additional observations from a re-analysis of the deposited data

Results flagged for a closer look

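Values were set apart where 1 tumor's gap to the nearest of its group of 5 took more than 0.71 of the group's range. Over 125 genes and the 3′ to 5′ ratio, each in both groups, this marked 17 values, and chance marks about 1 group in 20. KO tumor 01 was the lowest of the Il2ra-high tumors for Lmln (4.34), Slc6a8 (4.33) and Rab6b (3.41), and the highest for Cd4 (10.35). KO tumor 05 was the highest of the Il2ra-high tumors for Antxr1 (7.71), Rbfox3 (6.35), Ubash3b (4.58), Gm13261 (7.84), H2-Ab1 (10.31) and H2-Eb1 (9.88). WT tumor 02 was the highest of that group for Bcl2l1 (9.11) and Ccl25 (8.72) and the lowest for Rag2 (9.85). Of the Il2ra-low tumors, KO tumor 02 was the highest for Ube2q2 (6.56), WT tumor 01 for Sorl1 (11.46) and WT tumor 04 for Slc6a8 (8.80), and WT tumor 04 was the lowest for Il15ra (3.85).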

How the results depend on the processing

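The count of 39 genes was 34 with a pseudocount of 16, 39 with 0, 28 with no filter and 52 with a stricter one. It was 41 with the filter over gene means (chosen after seeing the data), 33 with sex as a covariate and 38 with a trended, robust fit. It was 43 with the mean of a gene's probe sets and 54 when both Il2ra probe sets ranked the tumors. The cause was not tested where it fell further. It was 17 with genotype and 11 with the 3′ to 5′ ratio as a covariate, 12 with all 15 tumors in 3 groups, 13 with 4 tumors a group and 2 with 6. It was 1 (Ubash3b) among 19 tumors and 0 among female tumors (1322 at unadjusted p of 0.05). With Il2ra as a continuous term it was 4 over 15 tumors and 6 over the 13 with a ratio under 3, chosen after seeing the data. Leaving out 1 tumor gave 22 to 74. The 3′ to 5′ difference was -0.80 with 4 tumors a group (exact p = 0.114), -0.44 with 6 (exact p = 0.595), and -1.09 to -0.75 without 1 tumor. No paired analysis was possible because replicate numbers are set within genotypes, and the Il2ra groups share none.

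Only genes that did not pass changed sign, 17 of those named. With the ratio as a covariate, Ankrd16 (0.47), Il21 (-0.018), Jak1 (-0.28), Jak3 (0.84), Mindy3 (-0.20), Prkcq (-0.21) and Pter (-1.37) changed sign. Among 19 tumors, Fbh1 (0.050), Il21 (-0.51), Il7r (-0.057), Il9r (-0.019), Prkcq (-0.047), Sfmbt2 (0.60) and Stat5a (0.22) changed sign. With 4 tumors a group, Il4 (0.0013), Jak3 (0.49), Pfkfb3 (-0.19), Prkcq (-0.025) and Pter (-0.36) changed sign. With the mean of probe sets, Il7 (0.0078) and Stat5a (0.83) changed sign. With genotype as a covariate, Il7 (0.033) changed sign. Among female tumors, Il7 (0.0019) changed sign. With Il2ra as a continuous term over 15 tumors, Prkcq (-0.013) and Pter (-0.031) changed sign. With it over 13 tumors, Jak3 (0.020), Prkcq (-0.013) and Pter (-0.035) changed sign. With both Il2ra probe sets, Pfkfb3 (-0.12), Prkcq (-0.0097) and Pter (-0.014) changed sign. Without 1 tumor, the ranges that crossed 0 were Il15 -0.091 to 0.028, Il21 -2.30e-05 to 0.14, Il4 -0.047 to 0.035, Il7 -0.085 to 0.054, Il7r -0.30 to 0.99, Jak3 -0.45 to 0.40, Pfkfb3 -0.084 to 0.29, Prkcq -0.16 to 0.19, Pter -0.31 to 0.63 and Stat3 -0.23 to 0.096.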
